A study of Mus musculus with 8 samples.

Results

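Glutamate receptors are the proteins with which neurons and glia detect the main excitatory transmitter of the brain, and the genes described here encode AMPA, NMDA and metabotropic subtypes: Gria1, Gria2, Gria3, Gria4, Grin1, Grin2a, Grin2b, Grin2d, Grm4 and Grm5. The genes were chosen by name, with earlier results of these data known. Each was measured by the probe set whose single gene symbol in the platform annotation was that name, and each measured gene had 1 such probe set. Of the 10 genes, 9 were found in this way, among 19938 named genes in all; Grin1, the obligatory NMDA receptor subunit, was not analysed here. The arrays came from a study of SCA17 (spinocerebellar ataxia 17), in which a polyglutamine tract of the general transcription factor TBP, which binds the TATA box, is expanded. Total RNA of cerebellum and of muscle (tibialis anterior in the design text) of 3-month-old mice, either SCA17 knock-in (KI) or wild type (WT), was hybridised to Affymetrix Mouse Gene 1.0ST arrays. Each of the 4 combinations of genotype and tissue had 2 arrays, numbered 94 and 97 for KI and 95 and 96 for WT in both tissues. Strain, zygosity and repeat length of the knock-in: not given in the sources used here.

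AMPA receptors are tetramers of GluA subunits that open within milliseconds of glutamate binding and carry most fast excitation. NMDA receptors combine the obligatory subunit with GluN2 subunits, admit calcium and gate synaptic plasticity. Metabotropic receptors couple to G proteins instead of forming a channel. In the cerebellar cortex the granule cells send parallel fibres onto Purkinje cells and interneurons, where AMPA receptors carry the postsynaptic current and the metabotropic receptor encoded by Grm4 sits on the parallel fibre terminals and limits release. Bergmann glia, the astrocytes that wrap Purkinje cell dendrites, also carry AMPA receptors.

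Promoter sequences are shown because the protein that is altered in this model binds the TATA box. A table of RefSeq promoters (build GRCm38.p6) had entries for 4 of the 10 genes, of which Gria2, Gria4 and Grin2d were measured. The 250 bases before the annotated start are printed for these 3, 5' to 3' on the strand of the gene, with capitals for CpG dinucleotides, the sites of DNA methylation.
Gria2 (chr3:80802836-80803085, minus strand): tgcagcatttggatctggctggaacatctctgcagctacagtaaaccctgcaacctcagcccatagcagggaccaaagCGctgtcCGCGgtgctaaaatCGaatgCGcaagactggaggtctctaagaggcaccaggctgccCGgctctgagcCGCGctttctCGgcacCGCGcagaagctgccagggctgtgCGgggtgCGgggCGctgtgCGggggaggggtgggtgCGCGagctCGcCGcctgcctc
Gria4 (chr9:4796235-4796484, minus strand): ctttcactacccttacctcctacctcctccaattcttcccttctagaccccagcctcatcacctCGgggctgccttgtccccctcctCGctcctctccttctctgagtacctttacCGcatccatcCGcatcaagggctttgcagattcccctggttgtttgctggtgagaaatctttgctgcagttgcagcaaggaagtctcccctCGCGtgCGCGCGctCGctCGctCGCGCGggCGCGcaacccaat
Grin2d (chr7:45866682-45866931, minus strand): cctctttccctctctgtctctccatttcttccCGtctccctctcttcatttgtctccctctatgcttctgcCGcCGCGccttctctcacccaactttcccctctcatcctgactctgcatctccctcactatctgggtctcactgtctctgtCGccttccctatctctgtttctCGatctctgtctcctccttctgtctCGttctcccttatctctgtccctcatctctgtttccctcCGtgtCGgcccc

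A TATA box, searched as TATAAA on both strands, had no match in the 3 windows and was found in 12.4% of 32851 promoter windows of this length. A GC box, searched as GGGCGG on both strands, had no match in them either and was found in 32.7% of windows. Gria2 held 19 CpG dinucleotides, a number that 19.7% of windows reached. Gria4 held 16 (reached by 25.4%) and Grin2d 9 (reached by 40.3%), against a median of 6. GC content was 64.8% in Gria2, 58.8% in Gria4 and 54.4% in Grin2d, against a median of 52.4% over all windows. These are counts of letters; binding and methylation were not measured.

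Values are log2 expression values, so that a difference of 1 is a 2-fold change. Array medians lay between 5.40 and 5.51. Within groups, r across probe sets was 0.977 to 0.989; probe sets are not independent replicates. To be tested, a gene had to reach the 40th percentile of its array, a level between 4.96 and 5.05, on 2 or more of the 4 arrays of a tissue. All tests come from 1 limma fit over the 8 arrays with a Benjamini-Hochberg adjustment over all genes tested, and a gene was called at an adjusted p under 0.05. Replicates are separate arrays. The design text speaks of 3 mice per genotype, while 2 arrays per group are used here, and nothing states that each array is a different animal, so the p values measure the spread between these arrays, and their number limits the precision. Tbp itself was at 7.68 and 7.52 in KI and 7.85 and 7.71 in WT cerebellum (-0.18 ± 0.12, SE; adjusted p = 0.998), and its probe set measures both alleles together.

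**Figure D1:**
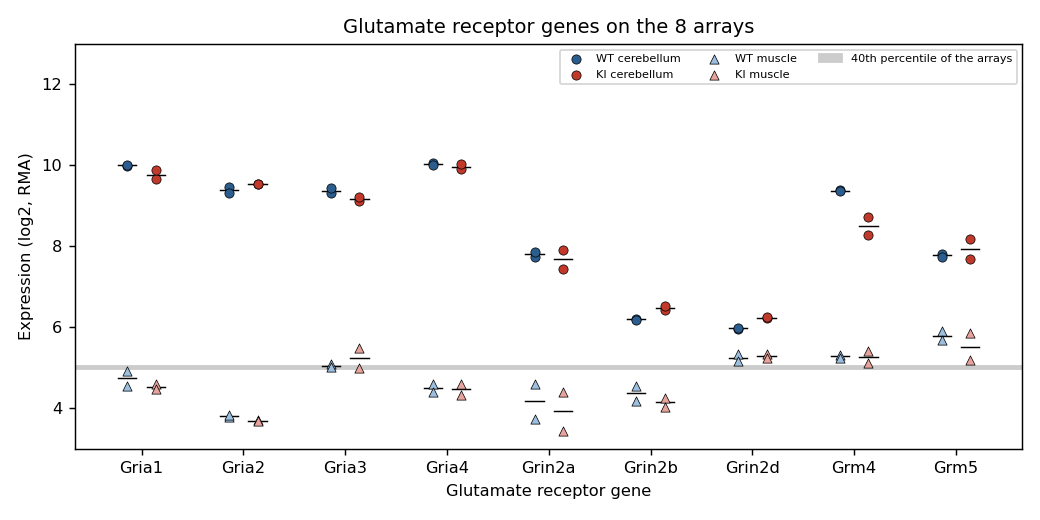
Expression (log2) of the 9 measured glutamate receptor genes on each of the 8 arrays. Circles are cerebellum and triangles muscle, red shades are KI and blue shades WT, short lines are group means of 2 arrays, and the grey band is the range of the 40th percentiles, 4.96 to 5.05. Each gene is higher in cerebellum than in muscle, and Grm4 has the widest gap between KI and WT cerebellum; levels of different genes come from different probes and are not to be compared.

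The first comparison asked whether the receptor genes differ between KI and WT cerebellum. None of the 9 was called, where 0.205% of the 13641 genes tested were (28 genes), and 2 of the 9 had an unadjusted p under 0.05, where 5.33% of all genes did. The nearest to a call was Grm4, which was 1.83-fold lower in KI. The other differences were small, the largest of them a 1.22-fold higher level of Grin2b in KI. The 95% interval of the difference excluded a 2-fold change in either direction for 8 of the 9 genes, all but Grm4. The median difference was -0.08 over the 9 genes and -0.01 over all genes tested, with 4 positive and 5 negative. All 9 passed the filter in this tissue with 4 of 4 arrays.

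Grm4, the presynaptic metabotropic receptor of parallel fibres (probe set 10449343, chromosome 17, which also carries Tbp), was at 8.29 in KI replicate 94 and 8.73 in KI replicate 97. It was at 9.40 and 9.36 in the WT cerebellum arrays. Both KI arrays thus lay below both WT arrays, and the gap was wider than the spread within either genotype (SD 0.31 in KI and 0.03 in WT, n = 2 each). The log2 difference was -0.87 ± 0.16 (SE), with a 95% interval from -1.23 to -0.51. Its unadjusted p was 0.000338, rank 39 of 13641, and its adjusted p was 0.118, which missed the threshold. Among all genes tested, 12 had a difference as low as or lower than this, Grm4 included. The difference kept its sign when any 1 array was left out, between -0.65 without KI cerebellum replicate 94 and -1.09 without KI cerebellum replicate 97, and its adjusted p over 17 alternatives ran from 0.0606 to 0.826.

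Grm5, a metabotropic receptor that couples to phospholipase C and calcium release (probe set 10554778, chromosome 7), was at 8.19 and 7.69 in KI and at 7.82 and 7.75 in WT cerebellum. The genotypes overlapped, because KI replicate 94 was the highest of the 4 arrays and KI replicate 97 the lowest. The difference was 0.15 ± 0.22 (SE, adjusted p = 1), and it was -0.10 without KI cerebellum replicate 94. The SE of Grm5 was wider than the median of 0.13 over genes. It draws on both tissues and was 0.17 with the cerebellum arrays alone.

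**Figure D2:**
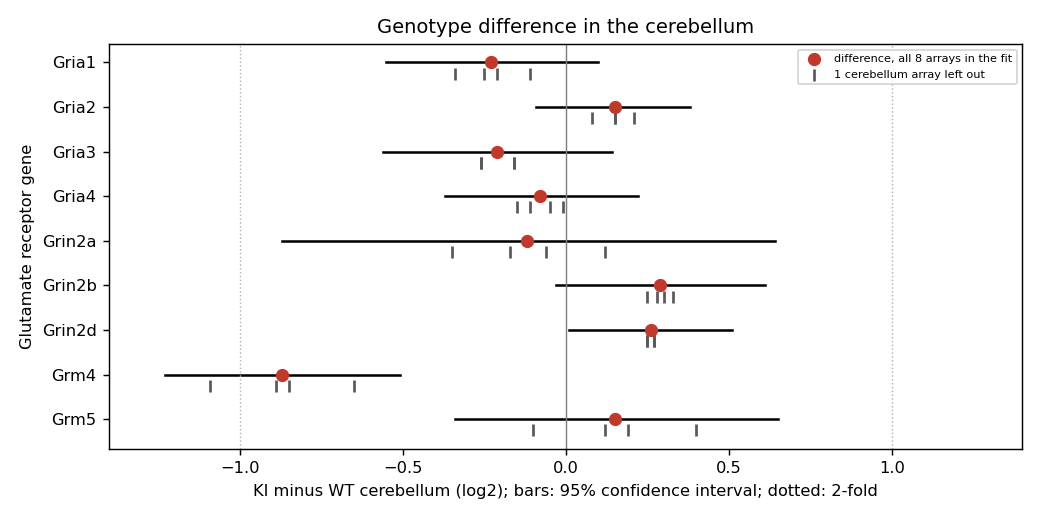
KI minus WT difference in the cerebellum (log2) for each of the 9 genes, with its 95% interval from the fit over 8 arrays. Ticks under each bar are the differences with 1 of the 4 cerebellum arrays left out, and dotted lines mark 2-fold. The interval of Grm4, -1.23 to -0.51, is the only one that reaches a 2-fold change, and those of Grm4 and Grin2d are the only 2 that leave out 0.

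The AMPA receptor subunits differed from WT by at most 1.17-fold, and none passed the test. Gria1 (probe set 10376245, chromosome 11), a subunit that is also carried by Bergmann glia, was at 9.66 and 9.88 in KI against 9.98 and 10.02 in WT cerebellum, with both KI arrays below both WT arrays. The difference was -0.23 ± 0.14 (SE, adjusted p = 0.998), and it was -0.11 without KI cerebellum replicate 94 and -0.34 without KI cerebellum replicate 97. Gria3 (probe set 10599348, chromosome X) likewise lay lower in both KI arrays, at 9.12 and 9.22 against 9.32 and 9.43, a difference of -0.21 ± 0.15 (SE, adjusted p = 0.998). Gria2, the subunit whose edited form makes AMPA receptors nearly impermeable to calcium (probe set 10498885, chromosome 3), went the other way: both KI arrays were at 9.55, above the WT arrays at 9.47 and 9.33. The difference was 0.15 ± 0.10 (SE, adjusted p = 0.998), and it was 0.08 without WT cerebellum replicate 96. Gria4, a subunit found in granule cells and Bergmann glia (probe set 10590663, chromosome 9), was at 9.90 and 10.04 in KI and at 10.07 and 10.02 in WT, so the genotypes overlapped. Its difference was -0.08 ± 0.13 (SE, adjusted p = 1), with a 95% interval from -0.37 to 0.22, and it ran from -0.15 (without KI cerebellum replicate 97) to -0.01 (without KI cerebellum replicate 94).

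No NMDA receptor subunit passed the test either. Grin2b, a subunit of early development that declines in the maturing cerebellum (probe set 10548791, chromosome 6), was at 6.44 and 6.52 in KI against 6.20 and 6.19 in WT. The difference was 0.29 ± 0.14 (SE, unadjusted p = 0.0706, adjusted p = 0.975). Grin2d, also a subunit of early development (probe set 10563421, chromosome 7), was at 6.23 and 6.25 in KI against 5.97 and 5.99 in WT. Arrays of the same genotype differed by 0.02 in Grin2d, and the difference between genotypes was 0.26 ± 0.11 (SE, unadjusted p = 0.0412, adjusted p = 0.906). Both genes were higher in both KI arrays than in both WT arrays, so leaving out 1 array could not turn the sign. With 1 array left out the differences ran from 0.25 to 0.33 for Grin2b and from 0.25 to 0.27 for Grin2d. Grin2a, the subunit of mature granule cells (probe set 10437629, chromosome 16), was at 7.45 and 7.92 in KI and at 7.75 and 7.85 in WT, with the KI arrays on either side of the WT arrays. Its difference was -0.12 ± 0.34 (SE, adjusted p = 1), the widest error of the 9 genes, and it was 0.12 without KI cerebellum replicate 94. This SE draws on the spread within all groups of both tissues. The SD of Grin2a was 0.68 in KI and 0.62 in WT muscle, where the gene was under the filter. In the cerebellum the SD was 0.33 in KI and 0.07 in WT, and the SE was 0.16 with the cerebellum arrays alone.

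In 6 of the 9 genes the KI and WT cerebellum arrays did not overlap, 3 higher in KI (Gria2, Grin2b, Grin2d) and 3 lower (Gria1, Gria3, Grm4). Over all genes tested 35.3% did not overlap. KI cerebellum replicate 94 was the lowest of the 4 cerebellum arrays for 5 of the 9 genes (Gria1, Gria3, Gria4, Grin2a and Grm4). The share of all genes for which this array was the lowest was not counted. The value of Grm4 without this array is given above.

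Markers of cerebellar cell types were set beside these values. Over all 13641 genes tested in the cerebellum, 7163 differences were negative, 6478 were positive and 0.205% were called. In bulk tissue, fewer cells of a type and less RNA per cell cannot be told apart. All 9 granule cell markers had negative differences in KI cerebellum (median log2 -0.15), none called; their mean level was 9.84 and 10.10 in KI against 10.24 and 10.12 in WT. The lowest difference of a granule cell marker was that of Cbln3, a secreted synaptic protein (-0.45 ± 0.13, SE; adjusted p = 0.551), and Gabra6, the granule cell subunit of the GABA receptor, was at -0.22 ± 0.14 (SE; adjusted p = 0.998). All 8 tested Purkinje cell markers were negative as well (median -0.49), none called, with a mean level of 8.82 and 9.12 in KI against 9.45 and 9.53 in WT. The lowest difference of the 8 was that of Pcp2, the Purkinje cell protein, at -0.89 ± 0.17 (SE, adjusted p = 0.148). The highest of the 8 was -0.15. The 8 microglia and macrophage markers averaged 6.16 in both KI arrays against 5.91 and 5.90 in WT, with 7 of 7 tested differences positive and none called. Means of the 7 measured markers of Bergmann glia and astrocytes were 9.09 and 9.05 in KI against 9.21 and 9.11 in WT, with 5 of 7 differences negative and none called. The 6 oligodendrocyte markers averaged 9.09 and 8.62 against 8.97 and 8.84, so that the genotypes overlapped. The 7 cerebellar interneuron markers averaged 8.04 and 7.91 in KI against 7.92 and 8.16 in WT, again overlapping, with 5 differences negative and none called. The 5 oligodendrocyte precursor markers averaged 6.56 and 6.43 in KI against 6.36 and 6.35 in WT, with 4 differences positive and none called. The 6 choroid plexus markers all had positive differences (median 0.20), none called. Their mean was highest on the array of KI replicate 94 (7.69). That of KI replicate 97 (7.25) lay between the WT arrays (7.05 and 7.44), so the genotypes overlapped. The 2 measured genes of the unipolar brush cell list were Eomes and Calb2. Whether either is confined to these cells was not tested. Eomes was at 5.61 and 5.85 in KI against 7.42 and 6.47 in WT, so the WT arrays lay far apart. Its difference was -1.22 ± 0.25 (SE, adjusted p = 0.205), and the lowest over all genes tested was also -1.22. Calb2 was at -0.04 ± 0.16 (SE, adjusted p = 1). Of 4 measured forebrain neuron markers 2 were under the filter, and the others were Nrgn (-0.38 ± 0.20, SE; adjusted p = 0.998) and Drd1 (0.17 ± 0.13, SE; adjusted p = 0.998). The part of cell composition in the values of the receptor genes was not tested.

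**Figure D3:**
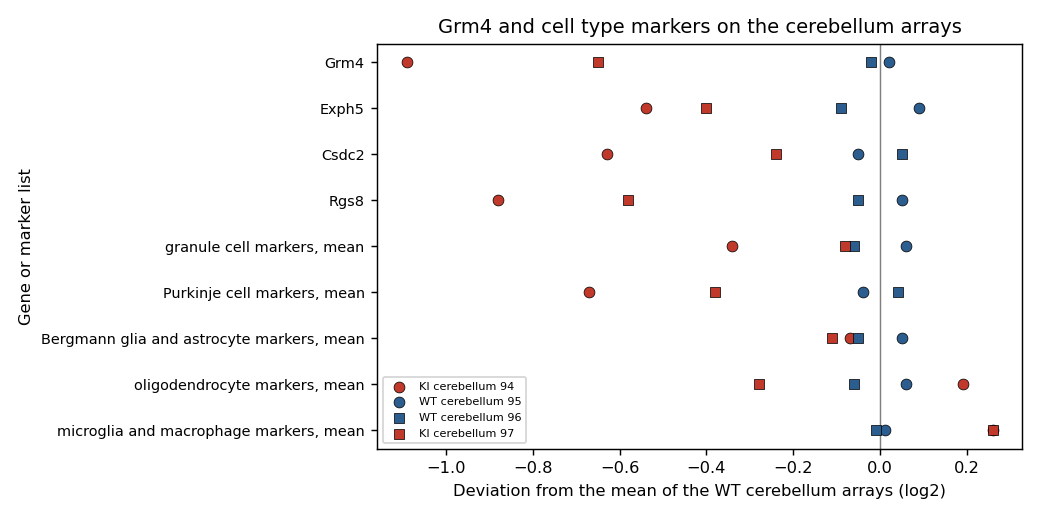
Deviation of each cerebellum array from the mean of the WT cerebellum arrays (log2), for Grm4, its 2 nearest genes by profile (Exph5 and Csdc2), Rgs8 and marker means. The marker lists shown are granule cell, Purkinje cell, Bergmann glia and astrocyte, oligodendrocyte, and microglia and macrophage. Red is KI and blue is WT, and shapes tell the replicates apart. Grm4 deviates by -1.09 and -0.65 in the KI arrays, the granule cell marker mean by -0.34 and -0.08 and the Purkinje cell marker mean by -0.67 and -0.38.

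Muscle was measured for contrast. Only 4 of the 9 genes passed the filter there, Gria3, Grin2d, Grm4 and Grm5, and none of the 4 was called, where 3.55% of 13933 genes were. Grm4 was at 5.42 and 5.13 in KI muscle and at 5.32 and 5.25 in WT muscle, a difference of -0.01 ± 0.16 (SE, adjusted p = 0.983) that turned to 0.03 under 2 other normalisations. Grm5 was at 5.85 and 5.20 against 5.91 and 5.68 (-0.27 ± 0.22, SE; adjusted p = 0.535). Gria3 differed by 0.19 and Grin2d by 0.04, with overlapping arrays in both. The other 5 genes were under the filter on all 4 muscle arrays and were not tested; their levels there ran from 3.44 (Grin2a in KI replicate 97) to 4.93 (Gria1 in WT replicate 95).

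The test of the difference between the tissues' genotype effects called none of the 9 genes, where 0.143% of 14708 genes were called. For Grm4 the muscle effect exceeded the cerebellum effect by 0.86 ± 0.22 (SE, unadjusted p = 0.00372, adjusted p = 0.157). For Grin2b it was lower by 0.51 ± 0.20 (log2 difference -0.51; unadjusted p = 0.0318, adjusted p = 0.326), but the muscle levels of Grin2b, 4.04 to 4.56, were under the filter on all 4 arrays, and its muscle effect was not tested by itself. These were the 2 genes of the 9 with an unadjusted p under 0.05 in this test, where 13.8% of all genes were. In Gria2, KI exceeded WT on every cerebellum array and was below it on every muscle array (3.70 and 3.68 against 3.79 and 3.83), but the muscle levels were under the filter and the difference of effects had an adjusted p of 0.439.

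The next comparison set muscle against cerebellum over both genotypes. All 9 genes were lower in muscle, as were 7032 of 14708 genes. Of the 9, 8 were called lower at an adjusted p under 0.05 and at least 2-fold, where 15.0% of 14708 genes were. Of the 8, Gria1, Gria2, Gria4, Grin2a and Grin2b were under the filter on all 4 muscle arrays and entered this test only through the cerebellum, where they are high, so that for these 5 a lower level in muscle was largely fixed by the filter and their calls are a description. Gria3, Grm4 and Grm5 passed the filter in both tissues. The median difference was -3.69 over the 9 genes and 0.03 over all genes tested. Among AMPA subunits the differences were as follows: Gria2 by -5.72 ± 0.07, Gria4 by -5.52 ± 0.09, Gria1 by -5.25 ± 0.10 and Gria3 by -4.13 ± 0.11 (log2 ± SE), which are 52.9-fold, 46.0-fold, 37.9-fold and 17.4-fold. The muscle levels of Gria2, Gria4 and Gria1 were under the filter, so that these 3 folds are against a background level and have no order among themselves. Gria2 was between 9.33 and 9.55 on the cerebellum arrays and between 3.68 and 3.83 on the muscle arrays.

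Among the NMDA subunits, Grin2a differed by -3.69 ± 0.24 (adjusted p = 3.98e-07) and Grin2b by -2.08 ± 0.10 (adjusted p = 5.00e-08). Grin2d had the smallest difference of the 9, -0.83 ± 0.08 or 1.78-fold (adjusted p = 6.26e-06), which passed the p threshold but not the 2-fold one. Its muscle levels, 5.16 to 5.35, were at the 43.7th to 48.0th percentile of the arrays. The metabotropic receptors Grm4 (-3.67 ± 0.11, adjusted p = 2.12e-09) and Grm5 (-2.20 ± 0.16, adjusted p = 7.91e-07) lay between. Muscle levels close to or under the 40th percentile depend on the background of the array, so these folds do too, and a level near it does not show that the gene is expressed. All 7 skeletal muscle fibre markers were called higher in muscle, where 1615 of 14708 genes were, but 1 of the 7 was under the filter in cerebellum. All 9 granule cell markers were called lower, where 15.0% of genes were, but 3 of the 9 were under the filter in muscle. Markers under the filter in 1 tissue entered only through the other, where they are high.

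**Figure D4:**
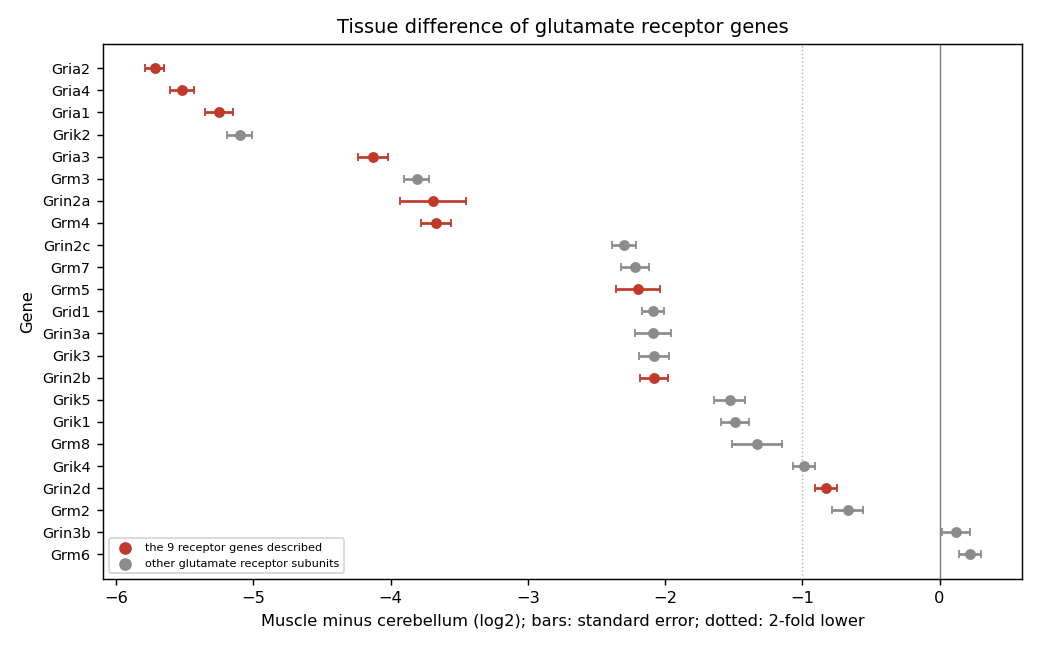
Muscle minus cerebellum difference (log2) with its standard error for the 9 receptor genes (red) and the 14 other measured glutamate receptor subunits (grey), ordered by size. The dotted line is 2-fold lower in muscle. Gria2, Gria4 and Gria1, whose muscle levels were under the filter, stand at -5.72, -5.52 and -5.25, and Grin2d at -0.83 lies above the line.

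Other genes of the same signalling system were taken from lists that were also chosen with earlier results of these data known. Of 16 other glutamate receptor subunits 14 were measured and 13 tested in the cerebellum. None was called by genotype, where 0.205% of all genes were, and 0 had an unadjusted p under 0.05, where 5.33% of all genes did. The median difference was -0.06. The members with the smallest p were Grm2, a presynaptic receptor of Golgi cells (-0.30 ± 0.15), Grin2c, the NMDA subunit that joins Grin2a in mature granule cells (-0.24 ± 0.13), and Grin3a, a modulatory NMDA subunit (0.33 ± 0.18; log2 ± SE, adjusted p from 0.980 to 0.998). Without KI cerebellum replicate 94 the difference of Grin2c was -0.08 and that of Grin3a 0.21. Between tissues 10 of the 14 were called lower in muscle, where 15.0% of all genes were, a background that holds for each list that follows. Called genes that did not pass the filter in muscle entered only through the cerebellum, where they are high, so that their calls are a description. Here they were Grin3a, Grik1, Grik2, Grm3, Grm7 and Grm8. In the lists that follow they were Cacng3, Shisa6, Neto1, Shank1, Slc17a6 and Slc1a6. Grik2, a kainate receptor subunit (-5.10 ± 0.09), Grm3, a metabotropic receptor (-3.81 ± 0.09), and Grin2c (-2.30 ± 0.09) had the largest differences.

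Auxiliary subunits, which traffic and gate the receptor channels, gave 0 calls of 14 by genotype in the cerebellum, where 0.205% of all genes were called. The median was -0.05, and 1 had an unadjusted p under 0.05, where 5.33% of all genes did. That 1 was Shisa6, an AMPA receptor partner, at 7.60 and 8.01 in KI against 8.33 and 8.40 in WT (-0.55 ± 0.22, SE; adjusted p = 0.857; -0.35 without KI cerebellum replicate 94). Cnih3 (-0.23 ± 0.13, and -0.10 without WT cerebellum replicate 96) and Cacng5 (-0.26 ± 0.18) followed. Between tissues 12 of the 14 were called lower in muscle (15.0% of all genes), among them Shisa6 (-3.99 ± 0.15), Neto2, a kainate receptor partner (-3.66 ± 0.11), and Cacng2, stargazin, which carries AMPA receptors to the granule cell surface (-3.09 ± 0.15). In muscle by genotype 0 of 11 were called, with 3 at an unadjusted p under 0.05, where 20.3% of all genes tested in muscle were.

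Of 23 scaffold, anchoring and trafficking genes none was called in the cerebellum by genotype, where 0.205% of all genes were. Of the 23, 18 had negative differences (median -0.09), as did 7163 of 13641 genes. The smallest p were those of Homer3, the Homer protein of Purkinje cells that tethers metabotropic receptors (-0.50 ± 0.14, unadjusted p = 0.00516, adjusted p = 0.504), Nptx1, a pentraxin that gathers AMPA receptors (-0.45 ± 0.15, unadjusted p = 0.0121, adjusted p = 0.710), and Dlg2, a PSD-95 relative (-0.24 ± 0.11, unadjusted p = 0.0484, adjusted p = 0.927). Homer3 was at 7.18 and 7.56 in KI against 7.86 and 7.89 in WT, and its difference was -0.32 without KI cerebellum replicate 94. In muscle 2 of 21 were called, where 3.55% of all genes were. Homer1, a scaffold of metabotropic receptors in neurons that muscle expresses as well, was lower in KI muscle, at 8.32 and 8.09 against 8.82 and 8.84 (-0.62 ± 0.11, SE; adjusted p = 0.0218). Nsf, the ATPase that recycles membrane fusion proteins and binds GluA2, was higher, at 7.87 and 7.69 against 7.00 and 7.16 (0.70 ± 0.12, SE; adjusted p = 0.0199). Homer1 lost its call without WT muscle replicate 95 (adjusted p = 0.102), WT muscle replicate 96 (0.0832) or KI muscle replicate 97 (0.115), and Nsf without any 1 of the 4 muscle arrays (0.0509 to 0.118). Both also lost it with the muscle arrays alone (0.0909 and 0.0716). Between tissues, Cbln1, the parallel fibre protein that bridges to the postsynaptic side (-5.00 ± 0.12), Dlg2 (-4.00 ± 0.07) and Nptx1 (-3.99 ± 0.10) differed most, and 10 of 23 were called lower in muscle (15.0% of all genes).

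The list of metabotropic receptor signalling came next. Of 10 genes tested in the cerebellum 7 were negative (median -0.18), as were 7163 of 13641 genes. Of the 10, 3 had an unadjusted p under 0.05, where 5.33% of all genes did. None was called, where 0.205% of all genes were. Rgs8, a regulator of G protein signalling found in Purkinje cells, was at 9.32 and 9.62 in KI against 10.24 and 10.14 in WT (-0.73 ± 0.14, SE; unadjusted p = 0.00056, adjusted p = 0.153). Plcb3, a phospholipase C, was at 6.49 and 6.75 against 7.12 and 7.45 (-0.67 ± 0.14, SE; adjusted p = 0.224). Adcy1, the calcium-stimulated adenylyl cyclase of granule cells, was at 9.50 and 9.94 against 10.08 and 10.24 (-0.44 ± 0.16, SE; adjusted p = 0.781). The 3 were named for their small p. With 1 array left out, the difference of Adcy1 ran from -0.66 (without KI cerebellum replicate 97) to -0.22 (without KI cerebellum replicate 94). Between tissues 7 of 10 were called lower in muscle (15.0% of all genes), with Adcy1 (-4.30 ± 0.11), Rgs8 (-4.22 ± 0.10) and Gnao1, the main neuronal inhibitory G protein (-4.10 ± 0.09), at the head.

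Genes of glutamate release and clearance gave 0 calls of 10 in the cerebellum by genotype, where 0.205% of all genes were called. At an unadjusted p under 0.05 there were 0, where 5.33% of all genes were. Slc1a6, the Purkinje cell glutamate transporter, was at -0.41 ± 0.19, Slc38a3, a glutamine transporter, at 0.35 ± 0.17 and Slc17a7, the vesicular transporter of granule cells, at -0.22 ± 0.15 (log2 ± SE; adjusted p from 0.953 to 0.998). With 1 array left out Slc1a6 ran from -0.64 (without KI cerebellum replicate 97) to -0.18 (without KI replicate 94 or WT replicate 96) and Slc17a7 from -0.39 (without KI replicate 97) to -0.05 (without KI replicate 94). In muscle 1 of 8 was called, where 3.55% of all genes were: Slc38a3, at 8.81 and 8.29 in KI against 9.42 and 9.25 in WT (-0.78 ± 0.17, SE; adjusted p = 0.0401). That call was lost in 9 of 17 alternatives, among them without WT muscle replicate 95 (0.202), WT muscle replicate 96 (0.0898), KI muscle replicate 97 (0.150) or any 1 cerebellum array (0.0625 to 0.0728). Between tissues 8 of 10 were called lower in muscle (15.0% of all genes), Slc1a3, the Bergmann glia transporter (-5.01 ± 0.14), Slc38a1 (-4.90 ± 0.10) and Slc1a2, the main astrocyte transporter (-4.46 ± 0.11), the most.

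**Figure D5:**
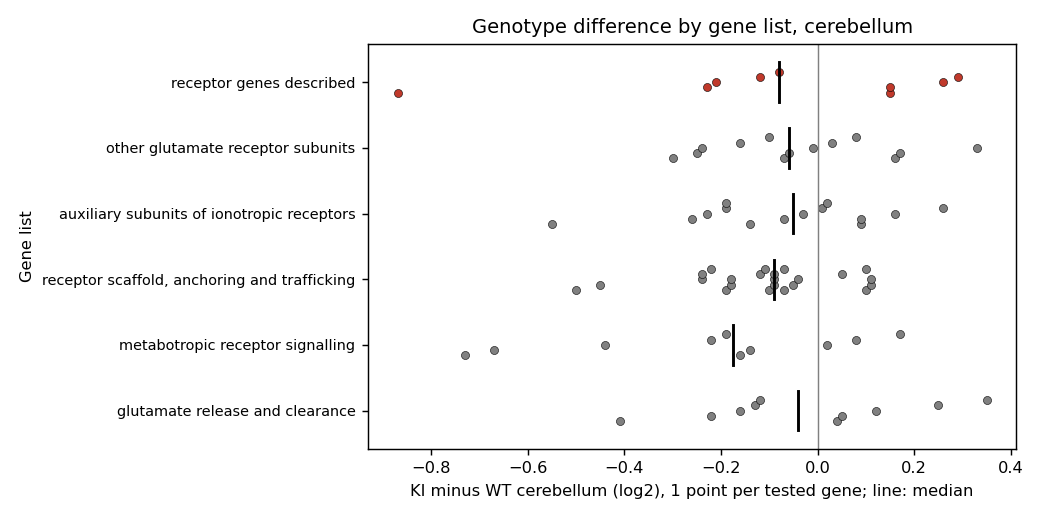
KI minus WT difference in the cerebellum (log2), 1 point per tested gene, for the 9 receptor genes (red) and the 5 other lists (grey), with the list median as a black line. Medians run from -0.18 for metabotropic receptor signalling to -0.04 for glutamate release and clearance, and Grm4 at -0.87 is the lowest point.

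For each receptor gene, the genes with the most similar profile were those with the smallest root mean square distance over the 8 arrays, after each profile was centred on its own mean; 14699 genes were compared. The distance takes in the difference between tissues and the variation within them. Gria1 was nearest to Caln1 (0.113 log2 units) and Slc1a3 (0.143), Gria2 to Syt1 (0.154) and Glrb (0.179), Gria3 to Mapk8ip2 (0.112) and Ckb (0.139), and Gria4 to Gabrb2 (0.092) and Zic1 (0.124). Grin2a was nearest to Rims2 (0.225) and Pip5k1b (0.260), Grin2b to Grid1 (0.064) and Scg5 (0.084), and Grin2d to Igsf8 (0.058) and Ss18l1 (0.066). Grm5 was nearest to Adarb1, an RNA-editing enzyme (0.135), and Fa2h (0.162). Grm4 was nearest to Exph5 (0.192) and Csdc2 (0.195), whose cerebellum differences were smaller than that of Grm4, at -0.47 ± 0.12 and -0.43 ± 0.14 (log2 ± SE; adjusted p = 0.387 and 0.710).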

How the data were processed

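The deposited table holds log2 expression values for 35556 probe sets on 8 arrays. GCOS and RMA are the authors' tools named in the submitters' processing notes. Versions, filters and which arrays were normalised together: not given in the sources used here. Platform annotation listed 23410 probe sets, 21789 of them with 1 gene symbol and 1621 with several; 12146 had none. A gene with several probe sets was represented by the brightest.

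A mean per group was fitted with limma 3.58.1 in R 4.3.3 over the 14708 genes kept in either tissue (4 residual and 5.30 prior degrees of freedom), and p values were adjusted by Benjamini-Hochberg over the genes kept for each comparison. Errors are SE from the fit. The procedure was tested on simulated data with 200 of 14708 genes changed per draw. For KI minus WT cerebellum it called 32.6% of 1.5-fold and 89.2% of 2-fold changes. A missing call therefore does not show that a gene is unchanged. The receptor genes and lists were chosen with earlier results of these data known. Named genes were all 10 receptor genes, Tbp, list members called by genotype, the 3 of each list with the smallest p in the cerebellum and the 3 with the largest tissue difference, and the 2 nearest profiles; Pcp2, Cbln3, Gabra6, Eomes, Calb2, Nrgn and Drd1 were named after their values were seen. Numbers in the titles recur between tissues. Deviations from the group means correlated between tissues at 0.0566 for 94 and 97 and at -0.0965 for 95 and 96. With 2 arrays per group each genotype gives a single such value, which cannot decide whether equal numbers are the same animal. Arrays were not paired in the main fit. Alternatives covered the filter, the probe set, the normalisation, the variance model, the arrays fitted, the block, the threshold and each array left out.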

Additional observations from a re-analysis of the deposited data

How the results depend on the processing

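None of the 9 receptor genes was called by genotype in the cerebellum, or for the difference of effects, under the alternatives run. In muscle none of those tested was called, which were 4 genes in most settings, 9 with no filter and 0 with the filter at the 60th percentile. Between tissues 8 were called lower in muscle under all 18 alternatives, among them the replicate block, which left 3823 genes called between tissues and 14 for the difference of effects and changed no call of a receptor gene. The count of all genes called in the cerebellum (28) was 18 with no filter, 45 with every named probe set tested and from 3 to 29 with 1 array left out. The count in muscle (495) was 246 with no filter, 105 with the muscle arrays alone, 995 at an adjusted p of 0.1 and from 108 to 393 with 1 array left out. The count for the difference of effects (21) was 3 with no filter, 38 with the filter at the 60th percentile, 63 with trended and robust variances, 108 at an adjusted p of 0.1 and from 0 to 16 with 1 array left out. Of 1142 values of single genes under alternatives, 1105 kept their direction and their side of the threshold, 18 lost a call and 19 changed sign, all of the last in receptor genes that were not called. Many of the 1105 values could not have changed direction, so their number does not measure stability. Changing the threshold, the filter or the variance model leaves a difference as it is. For a difference between genotypes, so does leaving out an array of the other tissue. Grm4 in muscle turned to 0.03 after another quantile normalisation and after median centring. With 1 array left out, sign changes gave ranges of -0.35 to 0.12 for Grin2a and -0.10 to 0.40 for Grm5 in the cerebellum. In muscle they were -0.06 to 0.43 for Gria3, -0.05 to 0.14 for Grin2d, -0.16 to 0.13 for Grm4 and -0.59 to 0.05 for Grm5. For the difference of effects they were -0.17 to 0.21 for Gria1, -0.10 to 0.19 for Gria4 and -0.61 to 0.36 for Grin2a. The cause of these shifts was not tested. The files hold no detection calls, so muscle levels near the 40th percentile cannot be told from background.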
